A study of Homo sapiens with 15 samples.

Results

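A set of 7 genes that stood higher in HEK293T cells after DcpS siRNA are described here across all 15 arrays of the series: the ephrin genes EFNA3 and EFNB2, the natriuretic peptide gene NPPC, the fatty acid ligase gene ACSL4, the lipid phosphatase gene MTM1, the cathepsin gene CTSO and the uncharacterised membrane protein gene TMEM31. They are 7 of 14884 genes with a named probe set, and each was measured by 1 probe set. They were picked from earlier results of these data as large increases in the DcpS group over the non-silencing group, with the other groups in view. The ranking by the difference between DcpS and non-silencing siRNA held 259 protein-coding or long noncoding RNA genes. These passed the test, were higher with DcpS siRNA and did not overlap between the DcpS and non-silencing arrays. All 7 members lie in the first 10, where the other 3 are ZNF267, TPM4 and NOLC1. The member nearest the end of that range was ACSL4, with a difference of 0.90 log2 units, and the next gene outside it was GPSM2, with 0.89. The difference between DcpS and non-silencing siRNA is therefore a description of the choice and carries no test below.

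HEK293T is a line derived from human embryonic kidney, and its cells were transfected with 1 of 5 siRNA reagents: a pool of 4 siRNAs against LOC550643 (which encodes NoBody, a small P-body protein), Dcp2 siRNA, DcpS siRNA, GAPDH siRNA or a non-silencing siRNA. Dcp2 removes the cap of mRNAs, DcpS degrades the cap that is left after decay from the other end, and GAPDH is a glycolytic enzyme. Every group, the non-silencing one included, received actinomycin D, which blocks transcription, at 1 ug per mL for 4 hours from 48 hours after transfection, so each level reflects both earlier synthesis and decay. There were 3 arrays a group; the labels do not say whether they came from separate cultures, so the spread between them may be technical.

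Values are log2 probe set levels, and the array medians lay between 4.01 and 4.08. The targeting siRNAs that could be checked lowered their targets: DCP2 was at 6.34 ± 0.10 with Dcp2 siRNA and 8.14 ± 0.13 with non-silencing siRNA, and GAPDH at 5.97 ± 0.24 with its siRNA and 7.20 ± 0.10 with non-silencing (SD, n = 3 each; limma adjusted p 3.15e-06 and 2.70e-05). DCP2 was also lower with DcpS siRNA, with a log2 difference of -0.54 (limma adjusted p = 0.0252). DCPS and LOC550643 had 0 named probe sets, so the effect of their siRNAs on their targets is not analysed here. Of 8 measured markers of embryonic kidney epithelium and HEK293 lines, 7 lay above the median gene (5.47), with PAX8 below it at 3.92, while 6 of the 7 measured markers of blood, endothelium and fibroblasts lay below it, all but SPI1 at 5.47. Between DcpS and non-silencing siRNA the marker nearest to the threshold was the fibroblast marker LUM, with a difference of 0.62 (limma adjusted p = 0.0691). The summed level of the 2 fibroblast markers was 5.95 to 6.41 in the DcpS arrays and 5.09 to 5.96 in the others, and its part in the results was not tested. In bulk RNA, fewer cells expressing a gene and less RNA per cell cannot be told apart.

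Ephrins are membrane-bound ligands that signal on contact through Eph receptor tyrosine kinases, and the cell that carries the ephrin can itself respond; A-type ephrins are held by a lipid anchor and B-type ephrins span the membrane. NPPC encodes C-type natriuretic peptide, a secreted hormone that acts through a receptor guanylyl cyclase. ACSL4 activates arachidonate and other polyunsaturated fatty acids for incorporation into phospholipids, MTM1 removes the 3-phosphate from phosphoinositides on endosomes and is mutated in X-linked myotubular myopathy, and CTSO is a cysteine protease of the papain family. The role of TMEM31 is not well known.

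The start regions of 4 members are shown because these genes varied together within groups (EFNB2, NPPC and TMEM31) or are the ephrin that stood furthest apart in the DcpS arrays (EFNA3). RefSeq windows of 300 bases, from 250 before to 50 after the annotated start on GRCh38.p14, were found for 6 of the 7 members, without CTSO. EFNA3 lies on the plus strand (chr1:155078587-155078886), EFNB2 on the minus strand (chr13:106535613-106535912), NPPC on the minus strand (chr2:231926347-231926646) and TMEM31 on the plus strand (chrX:103710659-103710958). Each is written 5′ to 3′ on the strand of its gene, with every match to a searched motif in capitals (a motif on the opposite strand appears as its reverse complement).
EFNA3: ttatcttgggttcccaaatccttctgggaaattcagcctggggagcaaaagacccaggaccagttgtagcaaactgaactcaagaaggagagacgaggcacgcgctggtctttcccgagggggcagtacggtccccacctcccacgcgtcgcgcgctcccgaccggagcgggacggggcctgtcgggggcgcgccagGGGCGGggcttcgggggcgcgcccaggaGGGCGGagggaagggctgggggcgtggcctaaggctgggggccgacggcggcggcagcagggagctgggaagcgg
EFNB2: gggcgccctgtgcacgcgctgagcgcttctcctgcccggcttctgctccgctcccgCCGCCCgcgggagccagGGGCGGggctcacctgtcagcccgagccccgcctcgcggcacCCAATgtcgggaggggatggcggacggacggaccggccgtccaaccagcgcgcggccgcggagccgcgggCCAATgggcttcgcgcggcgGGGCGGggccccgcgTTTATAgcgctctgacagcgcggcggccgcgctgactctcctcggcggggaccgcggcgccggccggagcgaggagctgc
NPPC: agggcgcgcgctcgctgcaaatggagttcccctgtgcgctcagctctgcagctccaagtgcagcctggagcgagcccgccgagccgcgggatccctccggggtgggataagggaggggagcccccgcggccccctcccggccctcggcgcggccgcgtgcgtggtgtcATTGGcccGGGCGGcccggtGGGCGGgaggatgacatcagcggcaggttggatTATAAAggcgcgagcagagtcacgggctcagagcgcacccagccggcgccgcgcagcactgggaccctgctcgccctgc
TMEM31: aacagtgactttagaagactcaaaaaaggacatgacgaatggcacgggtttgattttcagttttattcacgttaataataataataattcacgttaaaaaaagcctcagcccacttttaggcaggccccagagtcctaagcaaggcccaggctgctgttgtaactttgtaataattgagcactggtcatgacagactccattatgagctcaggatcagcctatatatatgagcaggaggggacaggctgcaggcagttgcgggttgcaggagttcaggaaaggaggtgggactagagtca

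In all, 7 short motifs were searched on both strands, namely the GC box GGGCGG, the CCAAT box CCAAT, the TATA box TATAAA, the E-box CACGTG, the AP-1 motif TGACTCA, an ETS motif CCGGAAG and a TEAD motif GGAATG. The GC box was found in the windows of EFNA3, EFNB2, NPPC, ACSL4 and MTM1, 5 of 6, and in 45% of all 35116 RefSeq windows. The GC box matches of ACSL4 include a pair that overlap each other. EFNB2 and NPPC, 2 of 6, each held both a CCAAT box (34.6% of all windows) and TATAAA (11.5%). TATAAA lay on the strand opposite to the gene in EFNB2 and on the gene's own strand in NPPC. The match began at position -30 from the start in EFNB2 and -29 in NPPC. The MTM1 window held the palindrome CACGTG, found in 7.26% of all windows, and the AP-1, ETS and TEAD motifs (4.95%, 10.3% and 14% of all windows) were in 0 of 6. TMEM31 held none of the 7 motifs, and its window had 44.7% G and C, against 69.3% to 78.7% in the other 5 and a median of 58.7% over all windows. These are matches of letters and not measured binding sites.

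EFNA3 stood apart in the DcpS arrays, the more clearly of both ephrins. Its log2 levels were 8.44, 8.33 and 8.50 in the DcpS arrays, 7.90, 7.78 and 7.98 with LOC550643 siRNA, 7.74, 7.86 and 7.72 with Dcp2 siRNA, 7.49, 7.36 and 7.48 with GAPDH siRNA and 7.34, 7.40 and 7.59 with non-silencing siRNA. The DcpS arrays lay above all 12 others, the LOC550643 and Dcp2 arrays overlapped each other in the middle, and the GAPDH and non-silencing arrays overlapped at the bottom. The DcpS mean exceeded non-silencing by 0.98 log2 units (SE 0.09), a fold of 1.98, and exceeded LOC550643, Dcp2 and GAPDH siRNA by 0.54, 0.65 and 0.98. EFNA3 shares its locus with the readthrough gene EFNA4-EFNA3, so its probe set may also read that transcript. EFNA4 itself was at a difference of 0.20 between DcpS and non-silencing siRNA and was not called (limma adjusted p = 0.565).

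EFNB2 was higher with DcpS siRNA by a similar amount but with a wider spread. Its levels were 5.61, 6.10 and 5.96 in the DcpS arrays, 5.73, 5.28 and 5.74 with LOC550643, 5.82, 5.26 and 5.48 with Dcp2, 5.32, 5.11 and 5.29 with GAPDH and 4.54, 4.85 and 5.43 with non-silencing siRNA. The DcpS arrays lay above those of the GAPDH and non-silencing groups and overlapped those of the LOC550643 and Dcp2 groups, and every neighbouring pair of groups in the order of means overlapped. The DcpS mean was 0.95 above non-silencing (SE 0.20), 0.65 above GAPDH, 0.37 above Dcp2 and 0.31 above LOC550643. The non-silencing arrays spread most, and the difference was 0.75 without non-silencing replicate 1 and 1.20 without replicate 3. EFNB2 overlaps LOC124903247 in the RefSeq table, which is not named among the probe sets.

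NPPC followed a different order, in which Dcp2 siRNA stood with DcpS siRNA. Its levels were 7.73, 8.20 and 8.13 in the DcpS arrays and 7.90, 7.68 and 7.67 in the Dcp2 arrays, which overlapped. They were 6.92, 6.97 and 7.26 with GAPDH, 6.78, 6.997 and 7.31 with non-silencing and 6.67, 6.76 and 7.15 with LOC550643 siRNA, groups that also overlapped one another. No array of the lower 3 groups reached any array of the upper pair. The DcpS mean was 0.99 above non-silencing (SE 0.16), 1.16 above LOC550643, 0.97 above GAPDH and 0.27 above Dcp2.

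ACSL4 stood apart in the DcpS arrays at 8.93, 8.74 and 8.93. It was at 8.47, 8.22 and 8.17 with LOC550643 siRNA, at 7.996, 7.97 and 8.10 with Dcp2, at 8.07, 8.02 and 7.82 with non-silencing and at 8.002, 8.03 and 7.80 with GAPDH siRNA. The lowest DcpS array was above the highest of the 12 others, the LOC550643 arrays came next without overlapping Dcp2, and the last 3 groups overlapped. The DcpS mean was 0.90 above non-silencing (SE 0.11), 0.92 above GAPDH, 0.84 above Dcp2 and 0.58 above LOC550643. ACSL4 overlaps LOC105373311 in the RefSeq table, which is not named among the probe sets.

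MTM1 had its lowest mean with non-silencing siRNA, as EFNA3 and EFNB2 did, but without overlap with any other group. Its levels were 5.99, 6.03 and 6.04 with non-silencing siRNA, 6.46, 6.38 and 6.46 with Dcp2, 6.50, 6.57 and 6.50 with LOC550643, 6.84, 6.63 and 6.41 with GAPDH and 7.25, 7.05 and 7.20 with DcpS siRNA. The non-silencing arrays lay below all 12 others and the DcpS arrays above all 12 others. MTM1 was the 1 of the 7 with the first property, which 0.746% of all genes had. The DcpS mean was 1.15 above non-silencing (SE 0.10) and 0.54, 0.64 and 0.74 above GAPDH, LOC550643 and Dcp2. The other targeting siRNAs were above non-silencing as well, by 0.41 to 0.60.

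TMEM31 had the largest difference of the 7 from a low level, at 5.21, 5.62 and 5.21 in the DcpS arrays. It was at 4.49, 4.42 and 4.64 with LOC550643 siRNA, 4.05, 4.00 and 4.17 with GAPDH, 3.86, 3.95 and 4.35 with non-silencing and 4.15, 3.92 and 3.98 with Dcp2 siRNA. The DcpS arrays lay above all others and the LOC550643 arrays above the remaining 9, which overlapped. The DcpS mean was 1.30 above non-silencing (SE 0.14), 0.83 above LOC550643, 1.27 above GAPDH and 1.33 above Dcp2. TMEM31 overlaps GLRA4 in the RefSeq table, which is not named among the probe sets.

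CTSO was the most variable. Its levels were 5.88, 5.33 and 5.79 in the DcpS arrays, 4.75, 5.53 and 4.69 with GAPDH, 5.31, 4.48 and 4.16 with non-silencing, 4.74, 4.70 and 4.32 with LOC550643 and 4.25, 3.95 and 4.51 with Dcp2 siRNA. GAPDH replicate 2 lay above the lowest DcpS array, non-silencing replicate 1 lay just below it, and each neighbouring pair of groups in the order overlapped. The DcpS mean was 1.02 above non-silencing (SE 0.27), 0.68 above GAPDH, 1.08 above LOC550643 and 1.43 above Dcp2. The difference from non-silencing was 0.78 without non-silencing replicate 3 and 1.35 without replicate 1.

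**Figure D1:**
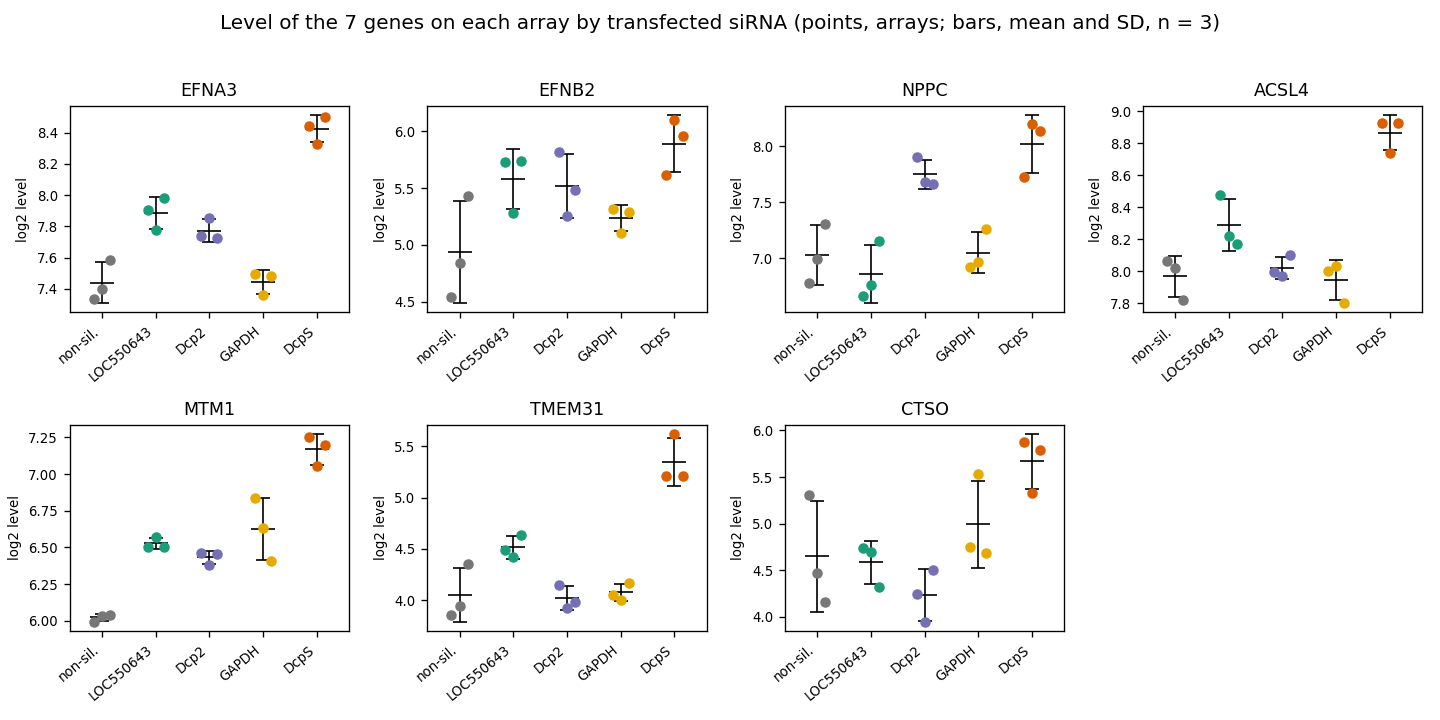
Log2 level of each of the 7 genes on each array (points), by transfected siRNA, with the group mean and SD (bars, n = 3); each panel has its own axis, which does not start at 0. The DcpS arrays lie above all 12 others for EFNA3, ACSL4, MTM1 and TMEM31 and overlap another group for EFNB2, NPPC and CTSO.

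Set side by side, the DcpS arrays lay above all 12 others for 4 of the 7 genes (EFNA3, ACSL4, MTM1 and TMEM31), a property that 2.06% of all genes had, and overlapped at least 1 other group for EFNB2, NPPC and CTSO. They did not overlap non-silencing for 7 of 7 (9.29% of all genes had DcpS higher without overlap), LOC550643 for 6 (11.0%), Dcp2 for 5 (12.7%) and GAPDH for 6 (10.8%). Since the DcpS arrays chose these genes, nothing is read from these counts. The median difference over the 7 genes was 0.99 from non-silencing, 0.64 from LOC550643, 0.74 from Dcp2 and 0.92 from GAPDH siRNA, and over all genes the medians were 0.00179, 0.0119, -0.00608 and -0.00157. EFNB2 was the gene nearest to LOC550643 (0.31), NPPC the nearest to Dcp2 (0.27) and MTM1 the nearest to GAPDH siRNA (0.54). The means of EFNB2, TMEM31 and CTSO over all arrays lay below the median gene (5.47), so these are probe sets of low signal.

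The other siRNAs gave smaller and more mixed differences from the same non-silencing arrays, which these comparisons share with the choice. LOC550643 siRNA was above non-silencing for 5 of 7 genes, by 0.64 for EFNB2, 0.50 for MTM1, 0.46 for TMEM31, 0.45 for EFNA3 and 0.32 for ACSL4, with NPPC at -0.17 and CTSO at -0.06. Dcp2 siRNA was at 0.72 for NPPC, 0.58 for EFNB2, 0.41 for MTM1, 0.33 for EFNA3, 0.05 for ACSL4, -0.03 for TMEM31 and -0.41 for CTSO. GAPDH siRNA was at 0.60 for MTM1, 0.34 for CTSO and 0.30 for EFNB2, and at 0.00, 0.02, -0.02 and 0.02 for EFNA3, NPPC, ACSL4 and TMEM31. The SE of these differences ranged from 0.09 for EFNA3 to 0.27 for CTSO. The group next below DcpS was LOC550643 for EFNA3, EFNB2, ACSL4 and TMEM31, Dcp2 for NPPC and GAPDH for MTM1 and CTSO.

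**Figure D2:**
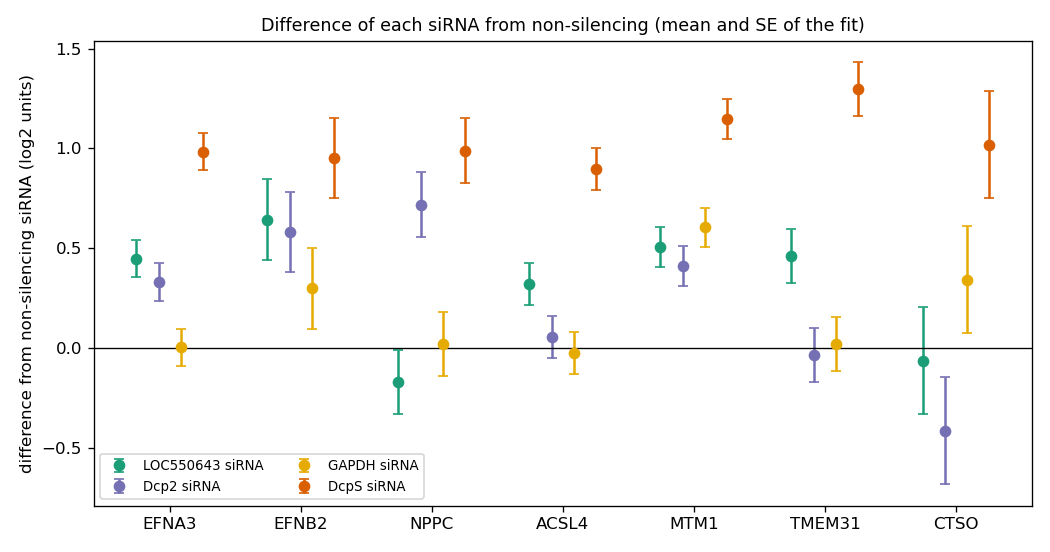
Difference of each siRNA group from the non-silencing group in log2 units (points) with the SE of the fit (bars), for the 7 genes; all 4 differences of a gene share the 3 non-silencing arrays. The DcpS points lie between 0.90 and 1.30, and the highest other point of each gene is LOC550643, Dcp2 or GAPDH siRNA in turn, up to 0.72 for NPPC with Dcp2 siRNA.

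Tests of the members were run for LOC550643, Dcp2 and GAPDH siRNA against each other, which do not use the DcpS and non-silencing means. These groups were still in view when the members were picked, so the tests are not independent of the choice. NPPC was lower with LOC550643 than with Dcp2 siRNA by a log2 difference of -0.89 (SE 0.16, limma adjusted p = 0.00744), and it was higher with Dcp2 than with GAPDH siRNA by 0.70 (SE 0.16, limma adjusted p = 0.0285). EFNA3 was higher with LOC550643 than with GAPDH siRNA by 0.44 (SE 0.09, limma adjusted p = 0.0119). Every array of the higher group lay above every array of the lower in these 3 cases. The share of all genes without overlap was not computed for these pairs of groups, so nothing is read from that. The count of members called was 1 of 7 genes in each comparison. For LOC550643 against Dcp2 siRNA 3.20% of all genes were called, 1.65% higher and 1.56% lower. For LOC550643 against GAPDH siRNA 4.08% were called, 2.48% higher and 1.61% lower, and for Dcp2 against GAPDH siRNA 2.79%, of which 1.74% were higher and 1.05% lower.

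The calls rested on single arrays to a differing degree. NPPC between LOC550643 and Dcp2 siRNA was lost without LOC550643 replicate 1 (difference -0.79, limma adjusted p = 0.0503). NPPC between Dcp2 and GAPDH siRNA was lost without any Dcp2 replicate or without GAPDH replicate 1 or 2, with limma adjusted p up to 0.133, and kept without GAPDH replicate 3. EFNA3 between LOC550643 and GAPDH siRNA was lost without LOC550643 replicate 1 or 3 or GAPDH replicate 2 (limma adjusted p 0.0512 to 0.0552), and when the fit held just the arrays of those groups (0.0570).

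The other 18 tests of members did not pass, and their intervals show what the 3 arrays a group allow. These intervals are for single genes and are not adjusted for the number of genes tested, unlike the limma adjusted p beside them. TMEM31 was 0.50 higher with LOC550643 than with Dcp2 siRNA (95% interval 0.21 to 0.78, limma adjusted p = 0.0586). It passed under 4 of 8 alternatives of the fit, among them quantile normalization (0.0404). The others were the fit of just those groups' arrays and the axis covariates described below. In the 6 fits that left out 1 array of these groups it did not pass (limma adjusted p 0.0960 to 0.181). ACSL4 and TMEM31 were 0.34 and 0.44 higher with LOC550643 than with GAPDH siRNA (limma adjusted p 0.0843 and 0.0832). EFNA3 was 0.33 higher with Dcp2 than with GAPDH siRNA (limma adjusted p = 0.0760). For MTM1 the difference of LOC550643 from Dcp2 siRNA was 0.09 (95% interval -0.12 to 0.30) and that from GAPDH siRNA -0.10 (-0.31 to 0.11). CTSO was at -0.76 between Dcp2 and GAPDH siRNA, with a 95% interval of -1.33 to -0.19 and a limma adjusted p of 0.161. EFNB2 had a 95% interval of -0.37 to 0.49 for LOC550643 against Dcp2 siRNA. For LOC550643 against GAPDH siRNA its interval was -0.08 to 0.77, which includes the difference of 0.44 called for EFNA3 between those groups.

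Within groups, the 7 genes did not vary as a unit. When each group's mean was taken away, EFNB2, NPPC and TMEM31 deviated together over the 15 arrays (Pearson r 0.74 for EFNB2 and NPPC, 0.85 for EFNB2 and TMEM31, 0.79 for NPPC and TMEM31), and ACSL4 and CTSO deviated together (0.73) and against the first set (r -0.78 for ACSL4 and NPPC, -0.69 for CTSO and TMEM31). EFNA3 ran more weakly with the first set (0.48 with EFNB2) and against CTSO (-0.60). MTM1 followed neither closely, with its strongest correlation at 0.44 with ACSL4. Of the 21 pairs, 10 had a positive r. The arrays share their normalization and 5 fitted means, and these correlations are descriptions without a test.

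The deviations ran along an axis that much of the transcriptome shared, the first principal component of the deviations over all genes, which held 24.7% of the variance within groups. Its sign is arbitrary. NPPC (r -0.91), EFNB2 (-0.68), TMEM31 (-0.66) and EFNA3 (-0.52) ran against it, and CTSO (0.83), ACSL4 (0.71) and MTM1 (0.37) with it. The median absolute r was 0.68 for the 7 genes and 0.35 for all genes. The arrays furthest out at the positive end were non-silencing replicate 1, with a score of 14.55, and DcpS replicate 1, with 13.96, and replicates 2 and 3 of the DcpS group were at -6.62 and -7.34. EFNB2 and NPPC were lowest, and CTSO highest, in the DcpS and non-silencing groups on those replicate 1 arrays. Replicate 3 was at -10.47 with LOC550643, -12.08 with GAPDH, -9.73 with non-silencing and 3.52 with Dcp2 siRNA. Replicate 1 was at 6.54, 0.78 and -3.15 with LOC550643, GAPDH and Dcp2 siRNA. A part of the replicate number in the axis was not tested. Projected on the same axis with group means kept, the DcpS arrays averaged 2.76 and the non-silencing arrays 5.64, with SDs of 12.1 and 12.8. Adding that projection to the fit, an alternative picked once the data had been seen, gave a median difference of 0.97 for the 7 genes between DcpS and non-silencing siRNA, against 0.99 without it.

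**Figure D3:**
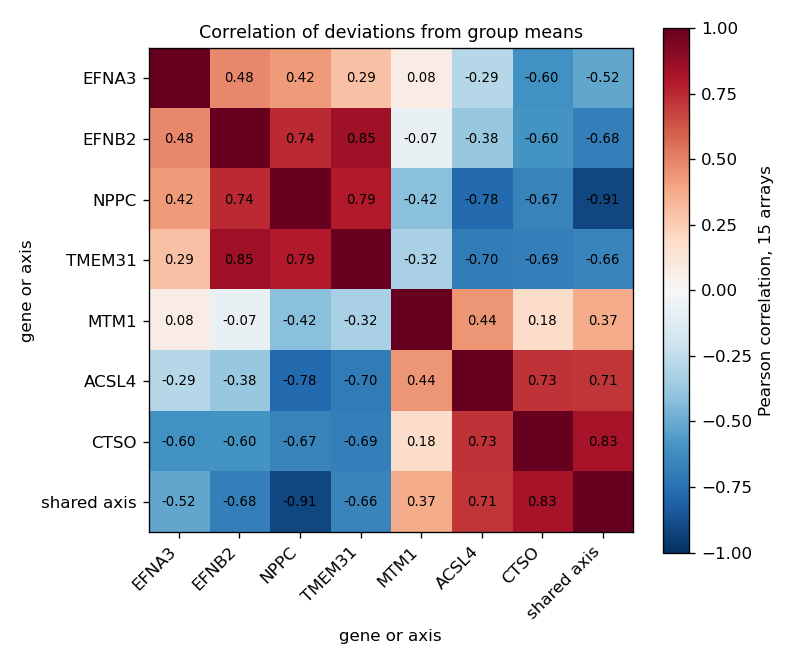
Pearson correlation over 15 arrays of the deviations from group means, between the 7 genes and with the shared axis (first principal component of the deviations over all genes); red is positive and blue negative. EFNB2, NPPC and TMEM31 form a positive block (0.74 to 0.85), and ACSL4 and CTSO (0.73) correlate negatively with it.

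The wider pathways of these genes were examined through 10 lists of relatives and partners, of whose 123 genes 96 were measured. With DcpS against non-silencing siRNA, 2 of these were called higher and 2 lower (limma, adjusted p under 0.05), 4.17% in all. Over all genes the share was 3.61%, 1.76% higher and 1.85% lower, so the listed genes lie near the background. The median difference was -0.03 over the listed genes and 0.00179 over all genes. None of the 6 other ephrin ligands was called by limma (2 had an unadjusted p under 0.05, as had 18 of the 96 listed genes and 2395 of all 14884 genes), and their differences lay between -0.27 (EFNA1) and 0.20 (EFNA4), beside the 0.98 and 0.95 of EFNA3 and EFNB2.

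EPHA3, an Eph receptor that binds A-type ephrins, was the 1 of 13 measured Eph receptors that was called, and it rose. It was at 7.55, 7.29 and 7.50 in the DcpS arrays and 6.88, 6.65 and 6.72 with non-silencing siRNA, a difference of 0.70 (SE 0.11, limma adjusted p = 0.00216). The other 12 lay between -0.39 (EPHB6) and 0.18 (EPHB4), and the list median was -0.00175. ADAM10, a membrane protease that cleaves ephrins bound to Eph receptors, was at 8.60, 8.59 and 8.79 in the DcpS arrays and 8.05, 8.11 and 8.17 with non-silencing siRNA and rose by 0.55 (SE 0.09, limma adjusted p = 0.00289), the 1 call among 15 measured genes of Eph and ephrin signalling. The adaptor gene NCK1 was at 0.50 without passing (limma adjusted p = 0.0693), and was at 0.53 with Dcp2 and 0.22 with both LOC550643 and GAPDH siRNA. For EPHA3 and ADAM10 every DcpS array lay above all 12 others, which held for 2.06% of all genes. Both were named because they were called, so nothing is read from that. The differences from LOC550643, Dcp2 and GAPDH siRNA were 0.82, 0.78 and 0.91 for EPHA3 and 0.65, 0.53 and 0.49 for ADAM10. Fitted on the DcpS and non-silencing arrays alone, ADAM10 did not pass (limma adjusted p = 0.0519).

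Around ACSL4, 5 other acyl-CoA synthetases were measured and 0 were called by limma (0 with an unadjusted p under 0.05), with ACSL1 at 0.04. Among 9 measured genes of polyunsaturated phospholipids and lipid peroxides, 9 had negative differences with a median of -0.19, where 7360 of all 14884 genes were negative, and 1 was called. This was ELOVL5, an elongase of polyunsaturated fatty acids, at 6.96, 7.11 and 7.24 in the DcpS arrays and 7.85, 7.88 and 7.75 with non-silencing siRNA, which fell by 0.72 (SE 0.09, limma adjusted p = 0.000618). The desaturase genes FADS1 and FADS2 were at -0.47 and -0.29 and LPCAT3, which places polyunsaturated chains on phospholipids, at -0.37, none past the threshold (limma adjusted p 0.0805, 0.108 and 0.290). Negative differences from the same non-silencing arrays were also seen with the other siRNAs: Dcp2 siRNA was at -0.45 for FADS1 and -0.67 for LPCAT3, LOC550643 siRNA was at -0.27 for FADS2, and ELOVL2, another elongase, was at -0.16 with DcpS, -0.53 with Dcp2, -0.48 with LOC550643 and -0.35 with GAPDH siRNA. For ELOVL5 all DcpS arrays lay below the 12 others, and its differences of DcpS from LOC550643, Dcp2 and GAPDH siRNA were -0.66, -0.47 and -0.62. ELOVL5 was named because it was called, and the share of all genes with DcpS below all others was not computed, so nothing is read from that.

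Around MTM1, 14 other myotubularin genes were measured and 1 was called, MTMR6, a phosphatase of the same family. It was at 6.18, 6.41 and 6.31 in the DcpS arrays and 6.996, 6.92 and 6.71 with non-silencing siRNA and fell by 0.57 (SE 0.10, limma adjusted p = 0.00392). With the mean of its probe sets in place of the highest it was at -0.28 and not called (limma adjusted p = 0.110), and it did not pass on the DcpS and non-silencing arrays alone (0.0691). MTMR1, the closest relative of MTM1 and its neighbour on the X chromosome, was at -0.05. Of 4 measured genes listed for phosphatidylinositol 3-phosphate 0 were called by limma (1 with an unadjusted p under 0.05). For the natriuretic peptide system 0 of 6 were called by limma (0 with an unadjusted p under 0.05), and the paralogues NPPA and NPPB were at 0.07 and -0.01. Among 15 other cathepsins 0 were called by limma (1 with an unadjusted p under 0.05) over a range of -0.24 to 0.29, and among 9 cystatins, inhibitors of cathepsins, 0 were called by limma (1 with an unadjusted p under 0.05).

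**Figure D4:**
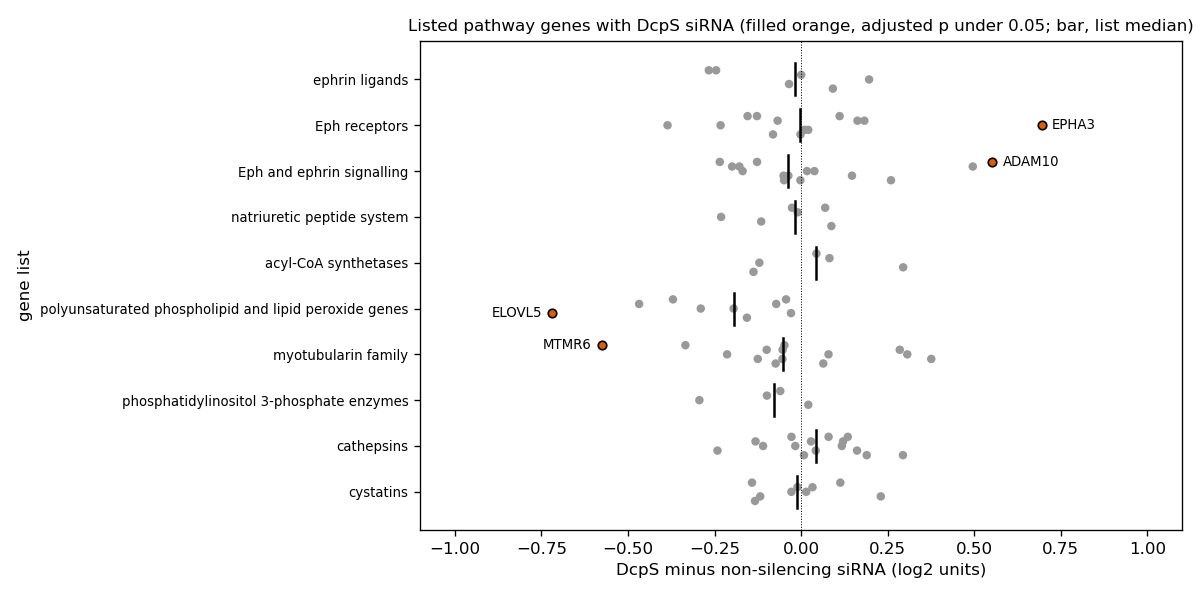
Difference between DcpS and non-silencing siRNA in log2 units for each of the 96 measured pathway genes (points) by list, with the list median (bar); orange points passed an adjusted p of 0.05. EPHA3 (0.70) and ADAM10 (0.55) lie on the right and ELOVL5 (-0.72) and MTMR6 (-0.57) on the left of points that mostly lie close to 0.

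**Figure D5:**
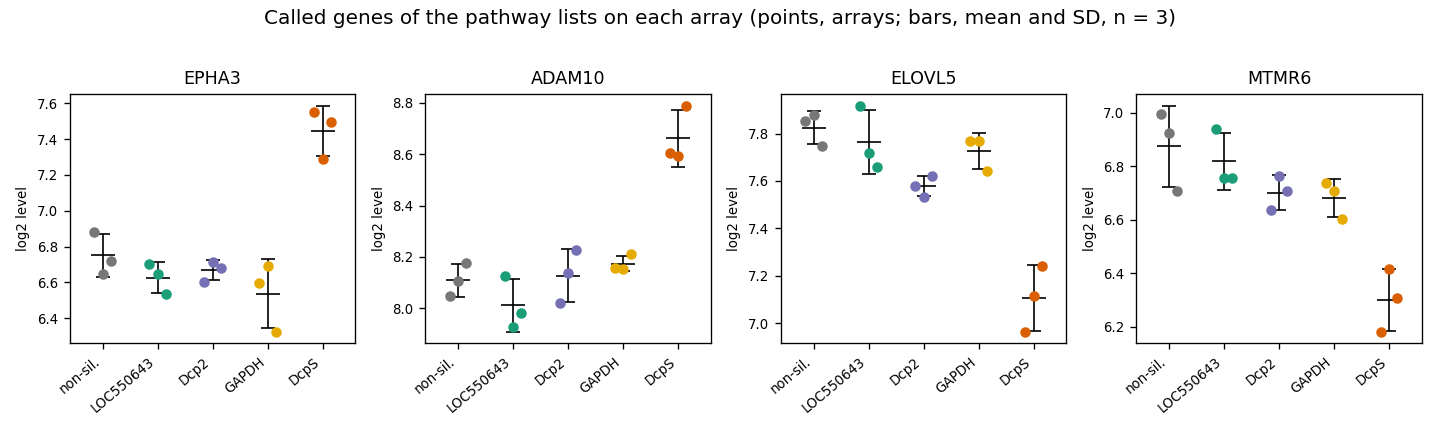
Log2 level on each array (points) of the 4 called pathway genes by transfected siRNA, with the group mean and SD (bars, n = 3); axes do not start at 0. The DcpS arrays lie above all others for EPHA3 and ADAM10 and below all others for ELOVL5 and MTMR6. These genes were named because they were called between DcpS and non-silencing siRNA, so nothing is read from the separation.

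Position in the genome was examined as well. TMEM31, ACSL4 and MTM1 lie on the X chromosome, 3 of 7. With DcpS siRNA, 1.05% of 569 measured X-linked genes were called higher against 1.79% of 14315 genes elsewhere. The 6 X-linked genes called include these 3 members. The choice set which called genes are members, so nothing is read from the 3 of 7. Of the 28 nearest measured neighbours, 2 on each side of each gene, 0 were called by limma and 7 had an unadjusted p under 0.05, as had 2395 of all 14884 genes. The largest difference among them was that of MORF4L2-AS1, beside TMEM31, at 0.46 (limma adjusted p = 0.127), and EFNA1 and EFNA4, which flank EFNA3, were at -0.27 and 0.20.

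The genes with the most similar profiles were sought among the 7438 non-member genes above the median level, as Pearson r over the 15 arrays with the mean standardised profile of the 7. They were MEGF9, which encodes a membrane protein with EGF-like repeats (r 0.967), NET1, an exchange factor for RhoA (0.967), GPSM2, a spindle orientation protein (0.937), FBXW11, a substrate receptor of a ubiquitin ligase (0.922), and CDC42SE2, a small effector of CDC42 (0.919). Between DcpS and non-silencing siRNA they were at 0.71, 0.68, 0.89, 0.47 and 0.46, and with the other siRNAs at -0.07 to 0.43. The profiles include the arrays that chose the members, so these values and the order of the groups follow from the choice and are descriptions. For single genes, the nearest were GPSM2 for EFNA3 (0.964), SMIM15 for EFNB2 (0.92), NOCT, a deadenylase-like protein, for NPPC (0.924), YAP1, a Hippo pathway coactivator, for ACSL4 (0.943), NECTIN2, an adhesion protein, for MTM1 (0.919), FBXW11 for TMEM31 (0.945) and EID1 for CTSO (0.966). NOCT was at 0.71 with Dcp2, 0.68 with DcpS, -0.03 with LOC550643 and 0.16 with GAPDH siRNA. EID1 was at 0.26 with DcpS siRNA and was not called (limma adjusted p = 0.282).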

How the data were processed

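HEK293T RNA was measured on 15 whole-transcript arrays, 3 for each of 5 siRNAs; groups and replicate numbers come from the sample titles. The deposited values are log2 probe set summaries; per the submitters' processing notes they were made with RMA and the oligo package, with versions, probe set definition and build not given in the sources used here. A log2 base was inferred from the range. RMA equalises array distributions, so values show relative levels, and arrays compress folds. Precision is limited by having 3 arrays a group.

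Of 53617 probe sets, 16098 had 1 gene symbol, 0 had several and 37519 were unnamed and left out. The probe set with the highest mean stood for each of 14884 genes. limma 3.58.1 in R 4.3.3 fitted 1 mean per group to all 15 arrays (10 residual degrees of freedom); tests were two-sided moderated tests, adjusted by Benjamini-Hochberg over all genes within a comparison, called at 0.05. The fit was run on simulated data with independent errors and changes planted in the DcpS group. Those data lack the shared axis of the real deviations, so the run does not cover it. The members and lists were chosen with earlier results of these data known; list genes were taken from gene families and named where called, at most 3 a list, with those nearest the threshold named besides, after their values were seen; the genes of most similar profile were the 5 nearest to the mean of the members and the nearest to each member. Tests of members compare only the LOC550643, Dcp2 and GAPDH groups, which were in view at the choice. The alternatives were a replicate block, median centring, quantile normalization, only genes above the median level, the mean of probe sets, just the arrays of the groups compared, a trended robust variance, the shared axis as a covariate (its score, or each array's projection on it) and leaving out each array. Promoter windows and gene order are RefSeq's (GRCh38.p14), used without array coordinates.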

Additional observations from a re-analysis of the deposited data

How the results depend on the processing

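The replicate block, the compared arrays, the variance model and the axis score cannot move a difference of group means in this balanced design, and the differences of the DcpS and non-silencing arrays chose the members, so no stability is read from them. For the 7 members' median difference, leaving out single arrays gave 0.95 to 1.13 for DcpS against non-silencing, 0.85 to 0.94 against GAPDH, 0.60 to 0.70 against LOC550643 and 0.69 to 0.79 against Dcp2 siRNA, and 0.37 to 0.51, 0.28 to 0.40 and 0.00372 to 0.161 for LOC550643, Dcp2 and GAPDH siRNA against non-silencing.

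Members called between LOC550643 and Dcp2 siRNA numbered 1 in the fit reported and 2 with quantile normalization, only the compared arrays, the axis score or the projection as a covariate. Between LOC550643 and GAPDH siRNA they numbered 1, but 2 among genes above the median level, 0 with only the compared arrays and 3 with the axis score or the projection. Between Dcp2 and GAPDH siRNA they numbered 1, but 2 among genes above the median level and 3 with the axis score. Without single arrays each of these counts was 0 or 1. The settings with genes above the median level and with the compared arrays hold fewer genes or arrays; for the rest the cause was not tested. The projection was added after seeing the data.

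Over all genes, 538 were called for DcpS against non-silencing, but 104 with only the compared arrays, 1055 with the axis score, 1004 with the projection and 276 to 466 without single arrays. For LOC550643 against Dcp2 siRNA 477 became 750 above the median level, 1026 with the axis score and 149 to 468 without single arrays. For LOC550643 against GAPDH siRNA 608 became 280 with only the compared arrays, 1106 with the axis score, 1092 with the projection and 304 to 478 without single arrays. For Dcp2 against GAPDH siRNA 415 became 663 above the median level, 273 with only the compared arrays, 1009 with the axis score and 181 to 400 without single arrays.

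Of the listed pathway genes 4 were called, but 7 above the median level, 2 with only the compared arrays, 9 with the axis score, 7 with the projection and 4 to 5 without single arrays. Of the neighbours 0 were called, 1 with the axis score or the projection. The axis score was computed from these genes' own deviations, so it lowers their spread by construction.

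Samples with the same replicate number did not deviate together throughout. Of 10 pairs of groups, r was over 0.1 in 3 for number 1, 1 for number 2 and 5 for number 3. The highest r was 0.394, 0.11 and 0.324 for numbers 1, 2 and 3, and whether the numbers pair the samples was not tested. A replicate block gave 1 member called in each of the 3 comparisons, 595 genes called for DcpS against non-silencing and 6 listed genes. The median absolute correlation of the members with the axis was 0.58 to 0.80 without single arrays.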
